A study of Homo sapiens with 42 samples.

Results

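The genes described here are 40 effector genes of granulocyte precursors and phagocytes, taken by name from a table of 57353 gene names. They comprise 5 genes for azurophil granule proteins that are made at the promyelocyte stage (MPO, ELANE, PRTN3, AZU1 and CTSG) and 35 genes of mature monocytes and phagocytes. They were followed in MOLM-13, a human line of acute myeloid leukemia in which the receptor FLT3 has an internal tandem duplication. Vehicle, the FLT3 inhibitor quizartinib (3 nM) or quizartinib with the mTOR inhibitor everolimus (10 nM; combo) was given for 12 h, either in RPMI or in medium conditioned by HS-5, a human bone marrow stromal line (hBMSC-CM); everolimus alone was analysed in hBMSC-CM. Each of these 7 conditions had 3 cultures, numbered 1 to 3, and each culture gave a library from total input RNA and a library from its heavy polysomes, the RNA that carries many ribosomes. All 42 libraries are from the same line, and the conditioned medium brings the soluble products of stroma without stromal cells.

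Azurophil granules store serine proteases and peroxidase that neutrophils and monocytes release onto ingested microbes, and their genes are transcribed in a short window at the promyelocyte stage, then shut off as the cell matures. Genes for the NADPH oxidase, Fc receptors, integrins, Toll-like receptors and S100 proteins follow later, as the cell acquires the means to adhere, recognise, ingest and kill. Acute myeloid leukemia cells are held at an early stage of this path.

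Values are in CPM, the count of a gene relative to the total of its library, scaled by TMM, a factor that adjusts for library composition. Libraries held between 19439370 and 38786394 counts. Of 6 markers of the line and its lineage all were read in every library, SPI1 at 249 CPM or more and FLT3 at 24.6 CPM or more. CD33 is among these markers and is also counted with the mature genes. Of 9 stromal markers, COL3A1 and LUM had no count in any library; the list summed to 0.845 to 3.65 CPM in RPMI vehicle input and to 0.759 to 2.26 CPM in hBMSC-CM vehicle input, and it was higher in quizartinib than in vehicle in both media (8.58 to 35.0 and 4.95 to 19.2 CPM) and in combo (7.13 to 28.5 and 4.11 to 21.4 CPM). The highest of these markers was COL1A1, at up to 33 CPM. Markers of mast cells and eosinophils summed to 2.98 to 53.5 CPM in input, with TPSB2 the highest. The part of either list in the results was not tested. In bulk RNA, fewer cells that express a gene and less RNA per cell cannot be told apart. The 3 everolimus cultures differed from each other far less than the cultures of any other condition (5.41 to 9.16 against 42.4 to 324 chi-square per degree of freedom between input libraries).

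The granule genes include a cluster on chromosome 19 (GRCh38), where AZU1 (825097 to 832018), PRTN3 (840999 to 848175) and ELANE (851014 to 856247) lie on the same strand with 8980 and 2838 bases between them. CTSG lies on chromosome 14 (24573518 to 24576250) and MPO on chromosome 17 (58269855 to 58280935). S100A9 (153357854 to 153361023), S100A12 and S100A8 (153390032 to 153391073) are neighbours on chromosome 1, and ITGAM and ITGAX are neighbours on chromosome 16. To show the regulatory sequence of genes of both groups that the results below turn on, the 250 bases before the RefSeq start (GRCh38.p14) are given for 2 granule genes, 3 genes that were higher in hBMSC-CM and TYROBP, which was higher in quizartinib. Capitals mark GAGGAA (a motif bound by ETS factors such as SPI1, also known as PU.1) and TTGCNNAA (a form of the C/EBP site), on either strand. In these sequences the matches of the 2 motifs do not overlap.
PRTN3, chr19:840749-840998, plus strand: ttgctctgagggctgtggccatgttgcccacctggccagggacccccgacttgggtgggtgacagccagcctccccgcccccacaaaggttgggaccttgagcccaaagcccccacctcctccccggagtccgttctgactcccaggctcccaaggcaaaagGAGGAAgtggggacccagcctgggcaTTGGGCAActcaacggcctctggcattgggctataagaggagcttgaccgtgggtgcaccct
CTSG, chr14:24576251-24576500, minus strand: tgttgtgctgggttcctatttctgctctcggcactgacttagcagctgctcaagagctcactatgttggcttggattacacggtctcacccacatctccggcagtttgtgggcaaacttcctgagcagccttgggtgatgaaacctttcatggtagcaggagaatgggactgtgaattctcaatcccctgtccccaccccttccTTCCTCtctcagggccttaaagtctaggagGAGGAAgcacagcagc
S100A8, chr1:153391074-153391323, minus strand: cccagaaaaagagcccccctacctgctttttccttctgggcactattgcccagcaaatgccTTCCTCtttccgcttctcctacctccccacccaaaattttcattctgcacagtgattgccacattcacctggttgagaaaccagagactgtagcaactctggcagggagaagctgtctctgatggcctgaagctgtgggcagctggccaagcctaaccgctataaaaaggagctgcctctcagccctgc
S100A9, chr1:153357604-153357853, plus strand: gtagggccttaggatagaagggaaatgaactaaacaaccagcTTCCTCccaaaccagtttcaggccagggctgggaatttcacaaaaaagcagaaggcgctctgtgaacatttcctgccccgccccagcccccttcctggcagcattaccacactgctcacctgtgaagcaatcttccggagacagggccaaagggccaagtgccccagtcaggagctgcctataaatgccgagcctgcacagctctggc
FGR, chr1:27635186-27635435, minus strand: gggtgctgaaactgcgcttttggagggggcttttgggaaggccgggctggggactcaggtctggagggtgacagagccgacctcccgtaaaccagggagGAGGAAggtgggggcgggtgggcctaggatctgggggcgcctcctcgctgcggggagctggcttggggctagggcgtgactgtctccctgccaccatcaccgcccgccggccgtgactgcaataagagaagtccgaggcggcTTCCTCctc
TYROBP, chr19:35908296-35908545, minus strand: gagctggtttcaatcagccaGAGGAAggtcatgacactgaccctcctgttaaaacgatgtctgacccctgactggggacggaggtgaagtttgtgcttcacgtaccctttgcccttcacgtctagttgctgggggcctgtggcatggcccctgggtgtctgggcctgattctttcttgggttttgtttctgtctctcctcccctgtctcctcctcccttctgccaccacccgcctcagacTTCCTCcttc

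Promoters were matched for 33 of the 40 genes; ITGAX, LYZ, ITGB2, MPO, NCF4, CLEC7A and ELANE had no entry. GAGGAA stood in the 250 bases of 21 of the 33 genes (63.6%) and of 23.6% of all 34943 promoters, and in 2 of the 3 granule genes matched. These 34943, called all promoters here, leave out chromosome 8. TTGCNNAA stood in 8 of the 33 (24.2%) and in 9.06% of all promoters, and TTCNNNGAA, the STAT palindrome, in 2 of the 33 (6.06%) and in 6.56% of all promoters. These are matches of letters, and binding was not measured.

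Of the 40 genes, 34 reached a mean of 1 CPM over the 42 libraries and were tested. All 5 granule genes and 29 of the 35 mature genes did so. The 6 that did not were S100A12, TLR8, CLEC7A (the β-glucan receptor dectin-1), FCN1 (ficolin-1), CD68 and the hemoglobin scavenger receptor CD163, all genes of circulating monocytes or macrophages. The threshold passed between VCAN (1.08 CPM) and CD14 (1.29 CPM) on the inside and CD68 (0.466 CPM) and TLR8 (0.308 CPM) on the outside. By condition, the count in input RNA was 31 genes in each of the 3 RPMI conditions and 34 in hBMSC-CM with vehicle, quizartinib or combo. It was 33 in hBMSC-CM with everolimus. In RPMI input the missing genes were those 6 with CD14, VCAN and SERPINA1. These 3 passed the filter only through the hBMSC-CM cultures, so that their tests between media are not independent of it. S100A12 had no count in any of the 18 RPMI libraries and at most 26 in an hBMSC-CM library.

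The granule genes were the more abundant group. Their summed input level was 10834, 12522 and 16083 CPM in the RPMI vehicle cultures, where the 35 mature genes summed to 2256, 2467 and 2539 CPM. The 5 granule genes took 0.531% to 2.19% of the counts of an input library (median 1.22%) and 1.41% to 3.67% of a heavy polysome library (median 2.45%). Per kilobase of exon, PRTN3 (4640.5 CPM per kb), ELANE (3394 CPM per kb) and AZU1 (948 CPM per kb) held ranks 1 to 3 of the 40 genes in input RNA. LYZ followed at 372 CPM per kb and CTSG at 219.6, whereas MPO, the peroxidase that defines the granule, ranked only 17 of 40 at 11.8 CPM per kb.

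Comparisons used a model of all 12939 genes tested, and a gene was called at an adjusted p under 0.05. Quizartinib against vehicle in RPMI called 11 of the 34 genes, 5 higher and 6 lower, where 34.6% of all genes tested were called (16.6% higher, 18% lower). In hBMSC-CM quizartinib called 5 genes, all higher, and 12.3% of all genes (5.46% higher, 6.84% lower). hBMSC-CM against RPMI called 7 genes under vehicle and 17 under quizartinib, all higher and all of the mature group. CD14 and VCAN are among both, and SERPINA1 among the latter. The background there was 1.51% (1.3% higher) and 8.16% (6.11% higher) of all genes. The comparisons share control cultures: those of 1 medium use the same vehicle or quizartinib libraries as those between media.

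The median log2 change of the 29 mature genes tested was 1.12 for hBMSC-CM against RPMI under quizartinib and 0.50 under vehicle, with −0.03 and −0.01 over all genes. For the 5 granule genes the same medians were −0.01 and 0.08. The 29 mature genes include CD14, VCAN and SERPINA1, which passed the filter only through hBMSC-CM. Medians and pair counts without them are not given. Under quizartinib 24 of the 29 mature genes, and 2 of the 5 granule genes, were higher in hBMSC-CM in each of the 3 numbered pairs of cultures. The share of all genes that were higher in all 3 pairs was not computed. The 3 cultures of a group did not overlap those of the other group for 16 of the 34 genes with quizartinib in RPMI and 15 in hBMSC-CM (55.7% and 34.1% of all genes), and for 15 under vehicle and 25 under quizartinib between media (16.1% and 29.8% of all genes). Same-numbered cultures deviated together (correlation 0.42 to 0.741 in input, except for everolimus), and with the replicate number as a block within each fraction, called the block from here on, the calls were 19 for quizartinib in RPMI (10 higher, 9 lower) and 15 in hBMSC-CM (13 higher, 2 lower). For hBMSC-CM against RPMI they were 10 under vehicle and 26 under quizartinib (25 higher, 1 lower). With 1 block over all libraries these 4 counts were 14, 9, 9 and 21. The share of all genes called with either block was not computed, so these counts have no background beside them. Under quizartinib the 26 held the granule genes PRTN3 (adjusted p = 0.00718) and ELANE (0.0216), whereas the 21 held none (0.0833 and 0.13).

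The genes gained with the block, that is, called with it and not without it, were these. The share of all genes gained in this way was not computed, so the names alone do not set the members apart from other genes. For quizartinib in RPMI they were AZU1 (adjusted p = 0.0115), ITGAX (0.011), FCGR2A (0.0292), FCER1G (0.0498) and FGR (0.00237), which were higher, and MPO (0.000378), LYZ (0.0201) and MNDA (0.0137), which were lower. Of these 8 genes MPO, ITGAX and FGR were also called with the block over all libraries. For quizartinib in hBMSC-CM they were S100A8 (0.000386), S100A9 (0.0019), NCF1 (0.0111), CYBB (0.0218), ITGAM (0.0434), ITGAX (0.00833), FGR (0.0166) and LILRB1 (0.0242), which were higher, and MPO (0.0285) and PRTN3 (0.00298), which were lower. Of these 10 genes PRTN3, S100A8, S100A9 and ITGAX were called in the other form too. For hBMSC-CM against RPMI under vehicle FCGR2A (0.00686), TYROBP (0.000308) and SERPINA1 (0.0315) were gained as higher, all but SERPINA1 in both forms. Under quizartinib, beside PRTN3 and ELANE, they were CYBA (0.0107), ITGAX (0.0111), FCGR1A (0.0255), TYROBP (0.0435), CD33 (0.024) and LILRB1 (0.0173), higher, and CD36 (0.00661), lower, with ITGAX, FCGR1A, CD33 and CD36 called in both forms. The block ended no call of these 4 comparisons.

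**Figure D1:**
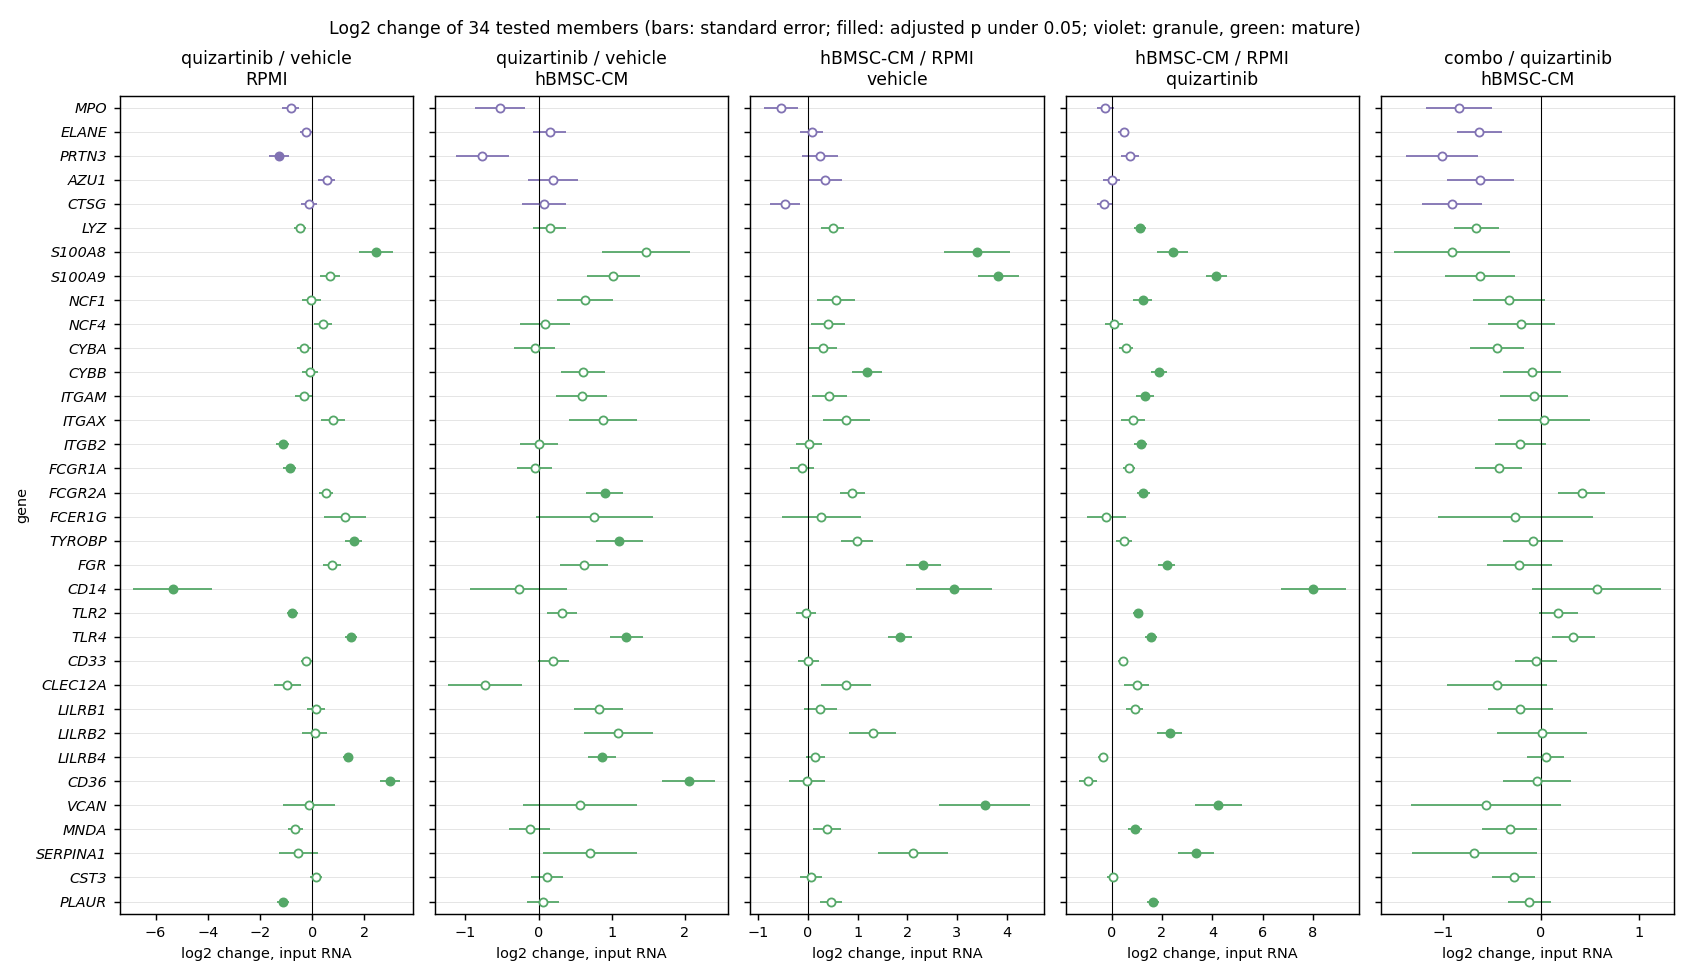
Log2 change of input RNA (x axis) for the 34 tested genes (rows) in 5 comparisons (panels). Points are estimates from 3 cultures a group with bars of 1 standard error, filled where the adjusted p is under 0.05; in the panels of hBMSC-CM against RPMI no granule gene (violet) is filled and their points fall on both sides of 0, whereas 7 and 17 mature genes (green) are filled to the right. The panels have their own x scales, and the far values of CD14 against RPMI quizartinib rest on libraries with no count. CD14 and VCAN are filled in both panels of hBMSC-CM against RPMI, and SERPINA1 in that under quizartinib. These genes passed the filter only through hBMSC-CM.

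PRTN3, which encodes proteinase 3, was the granule gene called for quizartinib. It was read at 6578, 7295 and 8795 CPM in RPMI vehicle and at 2579, 3166 and 3673 CPM in RPMI quizartinib. No quizartinib culture reached the lowest vehicle culture, and the log2 change was −1.27 ± 0.37 (SE, n = 3; edgeR quasi-likelihood, adjusted p = 0.00687). In hBMSC-CM, PRTN3 was at 6712, 8142 and 11978 CPM with vehicle and at 3714, 5397 and 6662 CPM with quizartinib. All 3 pairs were again lower, but the change of −0.77 ± 0.36 was not called (adjusted p = 0.17), whereas with the replicate block it was (adjusted p = 0.00298). The difference between the media in this effect was 0.50 ± 0.51 (adjusted p = 0.913).

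MPO (myeloperoxidase) was highest in RPMI vehicle, at 86.8, 85.5 and 113 CPM, and stood at 52.7, 51.5 and 56.6 CPM in RPMI quizartinib. These groups did not overlap, as was so for 55.7% of all genes in this comparison, and the log2 change of −0.83 ± 0.34 missed the threshold (adjusted p = 0.0553; 0.000378 with the replicate block). In hBMSC-CM it was at 67.1, 69 and 59.1 CPM with vehicle and 46.6, 42 and 46.3 CPM with quizartinib (adjusted p = 0.327, and 0.0285 with the block).

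ELANE (neutrophil elastase), AZU1 (azurocidin) and CTSG (cathepsin G) were not called for quizartinib or for medium in that model. ELANE was at 2933, 3471 and 4725 CPM in RPMI vehicle and 2644, 2886 and 3916 CPM in RPMI quizartinib. In hBMSC-CM it was at 2807, 3542 and 5401 CPM with vehicle and 3212, 4157 and 5695 CPM with quizartinib, so that culture 3 was the highest and culture 1 the lowest in these 4 groups, as they were for ELANE, AZU1 and CTSG in all 7 conditions. The spread between numbered cultures exceeded the difference between groups. AZU1 went the other way from PRTN3 in RPMI, from 935, 1281 and 1886 CPM to 1468, 1680.4 and 2856 CPM, and was higher in all 3 pairs (0.55 ± 0.34, adjusted p = 0.223, and 0.0115 with the block). CTSG was at 301, 388 and 563 CPM in RPMI vehicle and 287, 359 and 514 CPM in RPMI quizartinib, a change of −0.11 ± 0.30.

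Everolimus added to quizartinib was accompanied by lower values of the granule genes in every pair. In both media each of the 5 genes was lower in combo than in quizartinib in all 3 numbered pairs of cultures. The 5 genes were read in the same cultures, so each medium gives only 3 pairs. The share of all genes that were lower in all 3 was not computed. The median log2 change of the 5 genes was −0.58 in RPMI and −0.84 in hBMSC-CM, beside −0.02 and 0.00 over all genes. Groups did not overlap for 2 of the 5 granule genes in either medium (7.57% and 14.7% of all genes). None of these passed the threshold: of the 34 genes, edgeR, DESeq2 and limma voom called 0 in either medium (0.00773% and 0.24% of all genes called by edgeR). By edgeR 1 and 5 of the 34 had an unadjusted p under 0.05, beside 1.33% and 6.1% of all genes. In hBMSC-CM, CTSG was at 216, 316 and 419 CPM with quizartinib and 122, 152 and 232 CPM with combo (−0.91 ± 0.31, adjusted p = 0.332). PRTN3 went from 3714, 5397 and 6662 CPM to 1692, 2808 and 3338 CPM (−1.01 ± 0.37, adjusted p = 0.421). With 1 block over all libraries the only gene of the 34 called was CTSG, lower in combo in hBMSC-CM (adjusted p = 0.00729). With the block within each fraction, 5 genes were called lower in this comparison, namely CTSG (adjusted p = 0.000826), PRTN3 (0.0017), MPO (0.00743), ELANE (0.00764) and LYZ (0.0245). Here too the share of all genes called with a block was not computed.

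Across the 7 conditions each granule gene had its lowest mean in a combo condition, 3 in hBMSC-CM and 2 in RPMI. The range was widest for PRTN3, at 4.41-fold between hBMSC-CM vehicle (8944 ± 2723 CPM, SD, n = 3) and RPMI combo (2026 ± 414 CPM), and for MPO, at 3.8-fold between RPMI vehicle (95.2 ± 15.7 CPM) and hBMSC-CM combo (25 ± 2.7 CPM). ELANE and AZU1 spanned 1.84-fold and 1.54-fold, and no neighbouring conditions in their order were apart. For PRTN3 only the step from hBMSC-CM quizartinib to RPMI quizartinib separated neighbours, and for CTSG only that from everolimus to combo in hBMSC-CM. For MPO 5 of 6 steps did, some of them resting on the close everolimus cultures. Everolimus alone against vehicle in hBMSC-CM called none of the 34 genes by edgeR, DESeq2 or limma voom (0.41% of all genes by edgeR). By edgeR 6 of the 34, and 8.68% of all genes, had an unadjusted p under 0.05. MPO stood at 47.2, 47 and 47.1 CPM there, below all 3 vehicle cultures (−0.47 ± 0.34, adjusted p = 0.787).

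**Figure D2:**
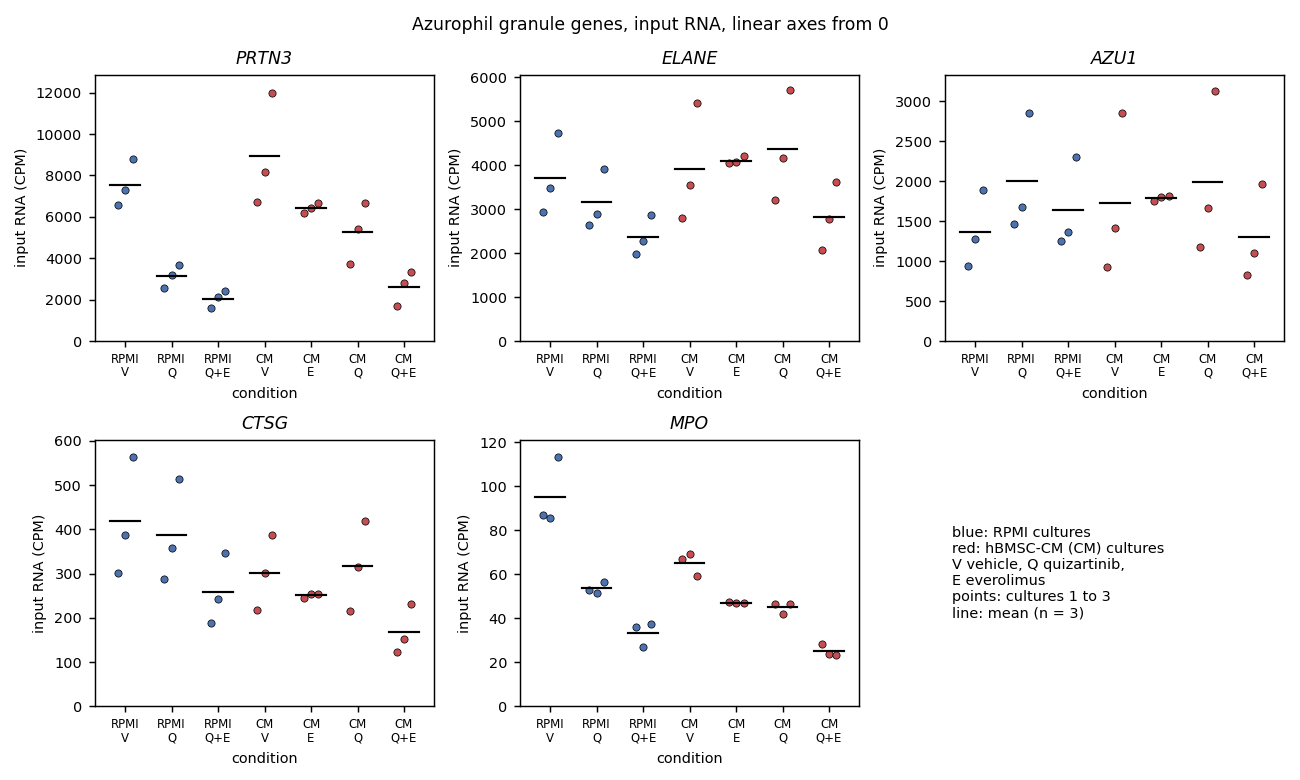
Input RNA (CPM, y axes from 0) of the 5 granule genes in 7 conditions (x axes). Points are the 3 cultures and lines their means; the lowest mean of each gene is in a combo condition, and ELANE, AZU1 and CTSG have culture 3 highest in every condition.

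Lysozyme and the S100 proteins are antimicrobial products of mature myeloid cells, and all 3 of their genes tested were called higher in hBMSC-CM under quizartinib. S100A8 and S100A9 encode the subunits of calprotectin, which binds metal ions and makes up a large part of the cytosol of neutrophils and monocytes. S100A9 was at 3.28, 2.13 and 3.11 CPM in RPMI vehicle and at 37, 33 and 51.4 CPM in hBMSC-CM vehicle. With quizartinib it was at 2.91, 3.64 and 7.25 CPM in RPMI and at 76.2, 71.6 and 99 CPM in hBMSC-CM. The media were more than 4 log2 units apart under quizartinib (4.16 ± 0.41, adjusted p = 4.96e-09) and close to that under vehicle (3.83 ± 0.41, adjusted p = 6.29e-08), with every hBMSC-CM culture above every RPMI culture. Quizartinib itself was not called in either medium (0.69 ± 0.38 in RPMI; 1.02 ± 0.36 in hBMSC-CM, adjusted p = 0.0576, and 0.0019 with the block).

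S100A8 was read at 0.909, 1.84 and 1.72 CPM in RPMI vehicle and at 9.37, 13.3 and 24.2 CPM in hBMSC-CM vehicle (3.40 ± 0.67, adjusted p = 0.00228). In RPMI it rose with quizartinib to 3.95, 6.2 and 13.9 CPM (2.43 ± 0.65, adjusted p = 0.00338). The highest group was hBMSC-CM quizartinib, at 24.2, 35.6 and 69.2 CPM, which was above RPMI quizartinib (2.42 ± 0.62, adjusted p = 0.00867) but lost that call without any of 3 cultures (hBMSC-CM quizartinib 3 or RPMI quizartinib 1 or 2; adjusted p up to 0.0877). The quizartinib effect in hBMSC-CM, 1.46 ± 0.60, was called only with the block (adjusted p = 0.105 and 0.000386). Both S100 genes had their largest mean in hBMSC-CM quizartinib and their smallest in RPMI vehicle, 28.8-fold apart for S100A8 and 29-fold for S100A9.

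LYZ, which encodes lysozyme, was at 458, 369.7 and 401 CPM in RPMI quizartinib and 983, 938 and 740.4 CPM in hBMSC-CM quizartinib, a rise of 1.12 ± 0.23 (adjusted p = 0.00104). With vehicle the groups also stood apart, 602, 481 and 621 CPM in RPMI and 919.7, 859 and 627 CPM in hBMSC-CM, but the change of 0.50 ± 0.23 was not called (adjusted p = 0.58). Exons of LYZ, NCF4, ITGB2, FCGR1A, CLEC12A, LILRB1, VCAN and CD68 overlap those of a gene on the opposite strand. Whether the counting used strand was not given, so reads of such pairs cannot be told apart. Exons of TLR4, FCGR2A, LILRB4, CD68 and CD163 overlap those of another gene on the same strand, which strand would not separate.

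The NADPH oxidase makes the superoxide of the respiratory burst, with CYBB and CYBA as its membrane subunits and NCF1 and NCF4 as cytosolic subunits. CYBB was at 15.5, 25.6 and 23.3 CPM in RPMI vehicle and 11.9, 23.5 and 25.3 CPM in RPMI quizartinib. It was at 42.2, 58.4 and 46.5 CPM in hBMSC-CM vehicle and 52.1, 82.2 and 87.9 CPM in hBMSC-CM quizartinib. All hBMSC-CM cultures were above all RPMI cultures, and the change was called under vehicle (1.19 ± 0.30, adjusted p = 0.0296) and under quizartinib (1.87 ± 0.31, adjusted p = 4.12e-05). The call under vehicle was lost in 5 of 6 fits with 1 culture removed, all but the one without hBMSC-CM vehicle 1 (adjusted p up to 0.296), and also with library size alone as the scaling (0.0673) and with only the libraries compared (0.054). It held with the block (adjusted p = 2.7e-05). NCF1 rose under quizartinib from 25.7, 55.4 and 53.1 CPM in RPMI to 69.3, 117 and 129 CPM in hBMSC-CM (1.23 ± 0.38, adjusted p = 0.036). That call was lost without hBMSC-CM quizartinib 2 or 3 or RPMI quizartinib 1 or 3 (adjusted p up to 0.208). NCF1 has near-identical copies in the genome, so its counts are uncertain. CYBA and NCF4, at means of 425 and 227 CPM in input, were not called in any of the 4 comparisons without the block.

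Among the leukocyte integrins, ITGB2 encodes the β2 chain that pairs with the products of ITGAM (CD11b) and ITGAX (CD11c). ITGB2 was at 491, 573 and 529.9 CPM in RPMI vehicle and fell to 237, 284 and 207 CPM in RPMI quizartinib (−1.13 ± 0.26, adjusted p = 0.000746). In hBMSC-CM it was at 549, 645 and 416 CPM with vehicle and 486, 599 and 539 CPM with quizartinib, a change of 0.01 ± 0.26. Under quizartinib the media thus differed by 1.16 ± 0.26 (adjusted p = 0.00236), and under vehicle by 0.02 ± 0.26. The difference between media in the quizartinib effect was 1.14 ± 0.36, which was not called (adjusted p = 0.114) except with the block (adjusted p = 0.000488). ITGAM was at 6.61, 4.98 and 2.59 CPM in RPMI quizartinib and 12.9, 11.7 and 11.1 CPM in hBMSC-CM quizartinib (1.33 ± 0.36, adjusted p = 0.0129, and 0.0742 without RPMI quizartinib 3). ITGAX, whose culture 2 was the highest in all 7 conditions, was at 10.9, 27.9 and 11.2 CPM in RPMI quizartinib and 20.7, 39 and 30.5 CPM in hBMSC-CM quizartinib. It was higher in all 3 pairs and not called without the block (0.85 ± 0.47, adjusted p = 0.353), but with it (0.0111, and 0.0343 with the block over all libraries).

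Fc receptors bind antibody on opsonised particles, and TYROBP (DAP12) and FCER1G are adaptors that carry the activating signal of many myeloid receptors. TYROBP was at 40.6, 73.2 and 51.5 CPM in RPMI vehicle and 129.7, 185 and 185 CPM in RPMI quizartinib (1.59 ± 0.32, adjusted p = 0.000178). In hBMSC-CM it was at 74.5, 128 and 125 CPM with vehicle and 196, 242 and 265 CPM with quizartinib (1.10 ± 0.32, adjusted p = 0.0194). It rose with quizartinib in both media without overlap, although in hBMSC-CM the call was lost without hBMSC-CM quizartinib 3 or vehicle 1 (adjusted p up to 0.104). FCER1G stayed low, at means from 0.752 to 2.99 CPM, and was not called without the block.

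FGR, a SRC family kinase of myeloid cells, was at 6.06, 7.67 and 7.61 CPM in RPMI vehicle and 37.1, 34.4 and 34.9 CPM in hBMSC-CM vehicle. With quizartinib it was at 9.19, 12.7 and 14.3 CPM in RPMI and 52, 54.3 and 57.2 CPM in hBMSC-CM. The medium effect was called both times (2.32 ± 0.35, adjusted p = 5.03e-05, and 2.18 ± 0.35, adjusted p = 2.81e-05) and held without any of the cultures. FCGR2A, the low-affinity receptor CD32a, was at 24.4, 25.7 and 20.3 CPM in RPMI quizartinib and 61.8, 63.1 and 43.3 CPM in hBMSC-CM quizartinib (1.26 ± 0.25, adjusted p = 0.000551). It was also above hBMSC-CM vehicle, at 33.9, 38.8 and 17.5 CPM (0.90 ± 0.25, adjusted p = 0.0135), a call lost without hBMSC-CM quizartinib 1 or 2 or vehicle 3 (adjusted p up to 0.139). FCGR1A, the high-affinity receptor CD64, fell in RPMI from 21.7, 26.1 and 27.2 CPM to 15.5, 13 and 12.8 CPM (−0.86 ± 0.24, adjusted p = 0.00536) and changed by −0.05 ± 0.24 in hBMSC-CM. Both receptor genes have close copies that may share reads.

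Toll-like receptors sense microbial products, TLR4 with CD14 lipopolysaccharide and TLR2 lipoproteins. TLR4 was called in all 4 comparisons. It was at 6.14, 5.66 and 7.34 CPM in RPMI vehicle, 18.3, 16.9 and 18.8 CPM in RPMI quizartinib, 31.8, 21.8 and 16.1 CPM in hBMSC-CM vehicle and 65.1, 51.8 and 42.9 CPM in hBMSC-CM quizartinib. Quizartinib raised it by 1.5 ± 0.23 in RPMI (adjusted p = 4.1e-06) and 1.2 ± 0.23 in hBMSC-CM (adjusted p = 0.000631). The medium raised it by 1.86 ± 0.24 under vehicle (adjusted p = 2.67e-06) and 1.57 ± 0.23 under quizartinib (adjusted p = 8.51e-06), and each of these calls held without any of the cultures compared.

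TLR2 fell with quizartinib in RPMI, from 22.8, 26.3 and 19.2 CPM to 13.8, 14.7 and 11.9 CPM (−0.76 ± 0.21, adjusted p = 0.00364). In hBMSC-CM it was at 22.9, 23 and 20.6 CPM with vehicle and 31.7, 30.1 and 21.1 CPM with quizartinib (0.32 ± 0.20, adjusted p = 0.328). The quizartinib effect differed between media by 1.08 ± 0.29 (adjusted p = 0.0387; 2 of 34 genes called, both higher in hBMSC-CM, and 1.96% of all genes, 1.79% higher and 0.178% lower). This call was lost in 10 of 12 fits without 1 culture (adjusted p up to 0.124), that is, in all but those without hBMSC-CM quizartinib 3 or RPMI vehicle 3. TLR2 under quizartinib was higher in hBMSC-CM than in RPMI (1.04 ± 0.21, adjusted p = 0.000598). CD14 was close to the limit of reading, with 7, 10 and 0 counts in RPMI vehicle, 0, 0 and 0 in RPMI quizartinib, 23, 39 and 70 in hBMSC-CM vehicle and 31, 38 and 24 in hBMSC-CM quizartinib. Set against a floor of 3 counts per library, it was at least 12.9-fold higher in hBMSC-CM than in RPMI under quizartinib (adjusted p = 4.09e-05) and at least 1.93-fold lower in RPMI quizartinib than in RPMI vehicle (adjusted p = 0.00619). The latter groups overlapped, since RPMI vehicle 3 had no count, and the call was lost with limma voom (adjusted p = 0.0825) and with only the libraries compared (0.0683). The call for hBMSC-CM under vehicle (2.94 ± 0.76, adjusted p = 0.0355) was lost without hBMSC-CM vehicle 2 or 3 or RPMI vehicle 1 or 3 (adjusted p up to 0.229). CD14 passed the filter only through hBMSC-CM, so its tests between media are not independent of it.

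Inhibitory receptors of myeloid cells carry motifs that recruit phosphatases. LILRB4 was at 76.8, 90.3 and 78.6 CPM in RPMI vehicle and rose to 207, 230.1 and 196 CPM in RPMI quizartinib (1.37 ± 0.20, adjusted p = 1.01e-06). In hBMSC-CM it rose from 84.5, 111 and 77.6 CPM to 161, 185 and 153 CPM (0.87 ± 0.19, adjusted p = 0.00266). The media did not differ by the test under vehicle or quizartinib (0.15 ± 0.19 and −0.34 ± 0.19). Its relative LILRB2 showed the other pattern, at 1.7, 1.16 and 2.73 CPM in RPMI quizartinib and 8.22, 9.29 and 10.1 CPM in hBMSC-CM quizartinib (2.30 ± 0.49, adjusted p = 0.00145). CD33, CLEC12A and LILRB1, at means of 69.5, 2.57 and 5.76 CPM in input, were not called in the 4 comparisons without the block. The LILR genes resemble each other, and reads may have been split among them.

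CD36, the scavenger receptor for oxidised lipoproteins and fatty acids, had the largest rise of the genes called higher with quizartinib in either medium. It rose from 4.57, 10.5 and 4.94 CPM to 38.4, 61.7 and 57.8 CPM in RPMI (2.98 ± 0.38, adjusted p = 9.96e-08). In hBMSC-CM it rose from 4.29, 9.31 and 6.14 CPM to 20.6, 33.8 and 27.5 CPM (2.05 ± 0.36, adjusted p = 0.000327). The fold change was 7.91 and 4.15, and the difference between media in this effect was not called (−0.93 ± 0.50, adjusted p = 0.568). Under quizartinib CD36 was lower in hBMSC-CM than in RPMI in all 3 pairs (−0.95 ± 0.35, adjusted p = 0.099, and 0.00661 with the block). Combo cultures kept it at 33.2, 60.5 and 59.5 CPM in RPMI.

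Among the other effectors, PLAUR, the urokinase receptor, fell with quizartinib in RPMI from 91.9, 78.5 and 86.6 CPM to 31.3, 37.9 and 50.3 CPM (−1.10 ± 0.23, adjusted p = 0.000207). In hBMSC-CM it was at 104, 123 and 130 CPM with vehicle and 96.2, 126 and 149 CPM with quizartinib (0.06 ± 0.22, adjusted p = 0.901). The effects differed by 1.16 ± 0.32 (adjusted p = 0.0434). This call too was lost in 10 of 12 fits without 1 culture, all but those without hBMSC-CM quizartinib 1 or RPMI quizartinib 3 (adjusted p up to 0.164). Under quizartinib PLAUR was 3.1-fold higher in hBMSC-CM (1.63 ± 0.23, adjusted p = 3.76e-06). Both genes called for this difference, TLR2 and PLAUR, fell in RPMI and did not pass the test in hBMSC-CM.

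VCAN, the proteoglycan versican, was nearly unread in RPMI, with 3, 4 and 13 counts in vehicle and 1, 5 and 15 in quizartinib. In hBMSC-CM it had 93, 93 and 61 counts with vehicle and 114, 120 and 86 with quizartinib. It was called under vehicle (3.56 ± 0.92, adjusted p = 0.0351, up to 0.29 without hBMSC-CM vehicle 1 or 2 or RPMI vehicle 1 or 2) and under quizartinib (4.23 ± 0.93, adjusted p = 0.00195). SERPINA1 (α1-antitrypsin) was at 0.11, 0.354 and 0.6 CPM in RPMI quizartinib and 3.53, 3.64 and 3.76 CPM in hBMSC-CM quizartinib (3.35 ± 0.72, adjusted p = 0.00167). MNDA, a nuclear antigen of the myeloid lineage, was at 45.3, 45.5 and 32.8 CPM and at 86.1, 82.8 and 64.5 CPM in the same groups (0.92 ± 0.29, adjusted p = 0.0391). The MNDA call held in only 1 of 6 fits without a culture, that without hBMSC-CM quizartinib 3, with adjusted p up to 0.117. CST3 (cystatin C) was not called in any comparison of input RNA. VCAN and SERPINA1 passed the filter only through hBMSC-CM, so their tests between media are not independent of it.

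Combo and everolimus values of the mature genes were less uniform than those of the granule genes. Combo was below quizartinib in each of the 3 numbered pairs for 16 of the 29 mature genes in RPMI and for 15 in hBMSC-CM, and above it for 1 and 2. The share of all genes with such pairs was not computed. LYZ in hBMSC-CM was at 587, 593 and 501 CPM with combo, below all 3 quizartinib cultures (−0.66 ± 0.23, adjusted p = 0.374). TLR4 was at 76.4, 67.7 and 56.5 CPM with combo there, higher in all 3 pairs (0.33 ± 0.22, adjusted p = 1). FCGR2A, at 77.3, 78 and 69.8 CPM, was above every hBMSC-CM quizartinib culture (0.42 ± 0.24, adjusted p = 0.973). None of these passed the test without the block. With the block LYZ was called lower, as given above, whereas TLR4 and FCGR2A were not called.

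Everolimus alone in hBMSC-CM gave CYBB at 86.6, 81.6 and 76.1 CPM, above all 3 vehicle cultures (0.73 ± 0.30, adjusted p = 0.404). TLR2, at 34.9, 34 and 33.1 CPM, and TLR4, at 33.1, 37.7 and 36.2 CPM, were also above all vehicle cultures (both 0.62 on the log2 scale, adjusted p = 0.217 and 0.312). S100A9 was at 23.9, 24.2 and 24.6 CPM, below all vehicle cultures (−0.74 ± 0.36, adjusted p = 0.567). With the block 5 of the 34 genes were called in this comparison, all higher, although the numbers did not pair the everolimus cultures. The share of all genes called with it was not computed. For the genes named here the groups did not overlap, as was so for 27.7% of all genes in this comparison. Without a block none of the 34 genes passed the test. With the everolimus libraries summed to 1 sample the count of members called was 0 as well.

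**Figure D3:**
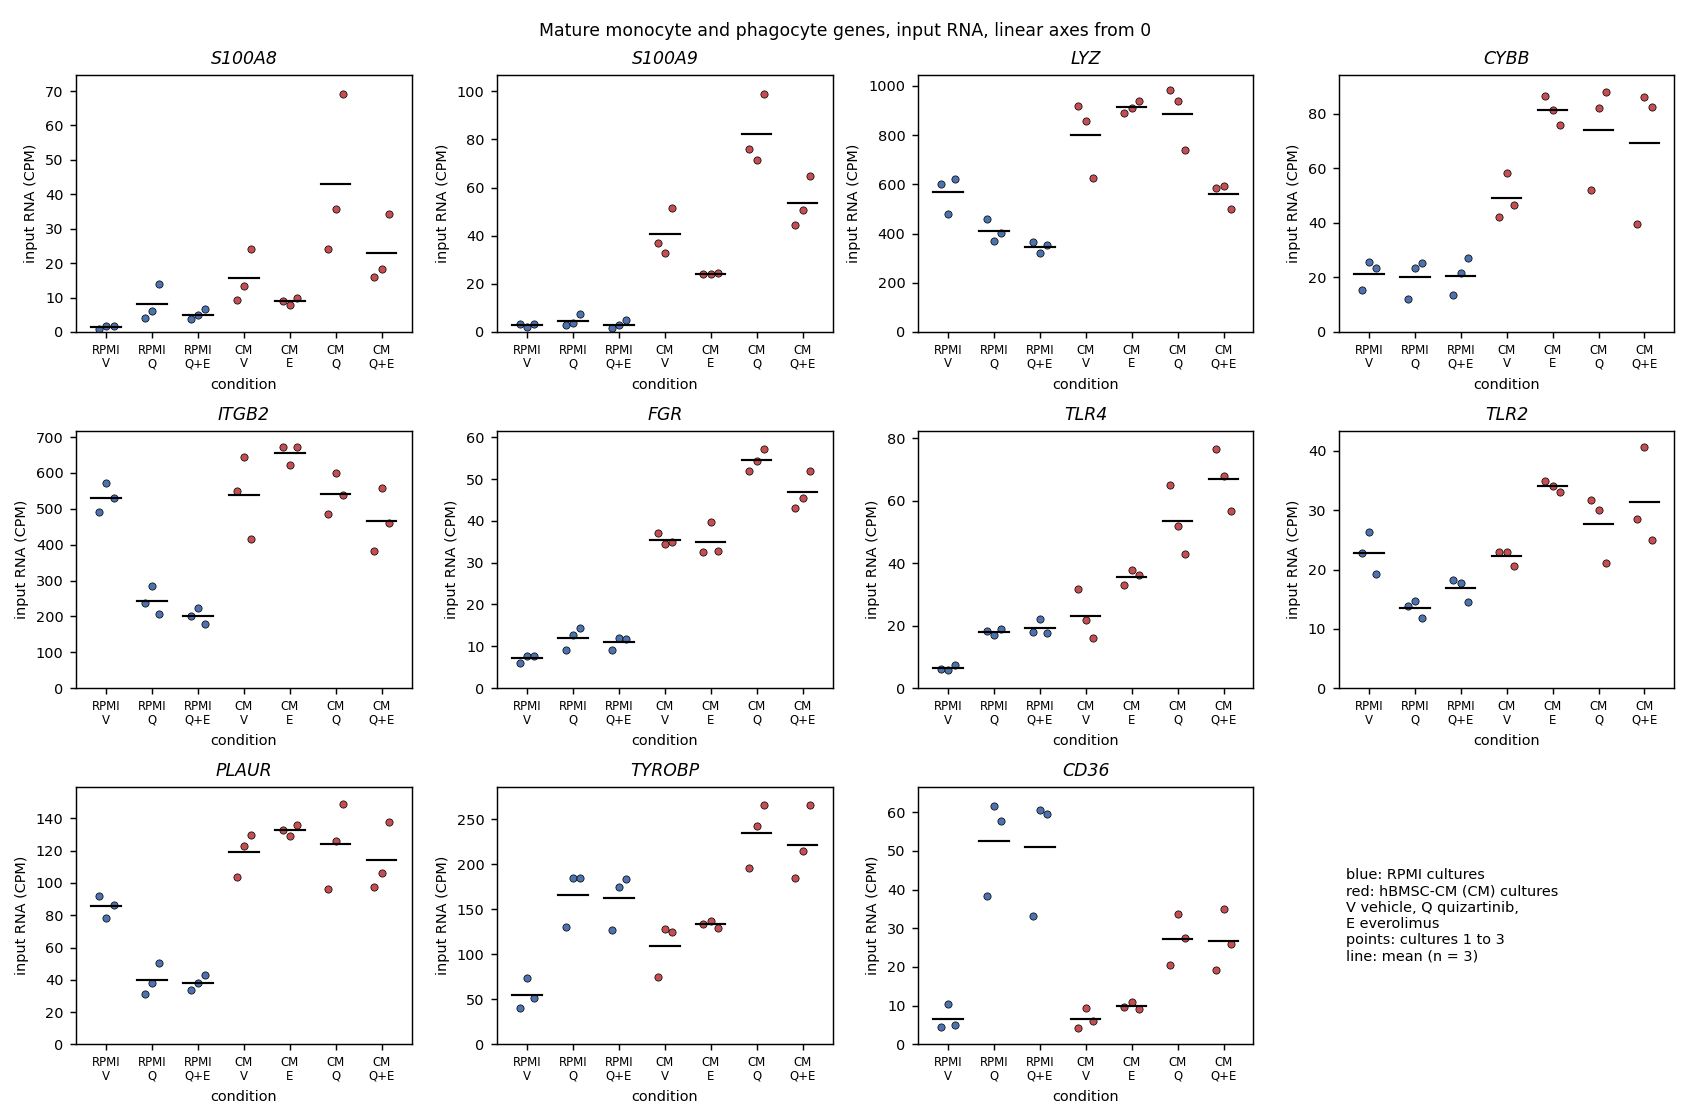
Input RNA (CPM, y axes from 0) of 11 mature genes in 7 conditions (x axes), with the 3 cultures as points and their mean as a line. S100A8, S100A9, FGR, CYBB and TLR4 are higher in hBMSC-CM (red) than in RPMI (blue) with the same treatment; TYROBP and CD36 are higher in quizartinib than in vehicle in both media; ITGB2, TLR2 and PLAUR are lower with quizartinib than with vehicle in RPMI, whereas these groups overlap in hBMSC-CM.

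Further genes of the same kinds were taken from a list of other granule proteins and a list of other phagocyte receptors and effectors. Of 29 other granule genes 19 were tested, and of 58 other phagocyte genes 48. In RPMI quizartinib called 9 of the 19 granule genes (5 higher, 4 lower; 47.4%) and 20 of the 48 phagocyte genes (18 higher, 2 lower; 41.7%), beside 34.6% of all genes. In hBMSC-CM it called 2 (10.5%) and 10 (20.8%), beside 12.3% of all genes. hBMSC-CM against RPMI called 2 of 19 (10.5%) and 12 of 48 (25%) under vehicle, beside 1.51% of all genes, and 3 of 19 (15.8%) and 16 of 48 (33.3%) under quizartinib, beside 8.16%. The counts between media include MMP9 and FPR1, which passed the filter only through hBMSC-CM. How many other list genes did so is not given, so these counts are not independent of the filter. The largest rise with quizartinib in RPMI was CSF1R, the receptor of macrophage colony-stimulating factor, from 9.44, 20 and 18.2 CPM to 106, 152 and 130 CPM (3.03 ± 0.29, adjusted p = 5.71e-10), and the largest fall among the phagocyte genes LST1 (−1.79 ± 0.24, adjusted p = 4.32e-07). Among the granule genes ACPP rose (1.29 ± 0.33, adjusted p = 0.00272). MMP9, the gelatinase of tertiary granules, was called lower (adjusted p = 0.014), at 0.126, 2.07 and 0.879 CPM in vehicle and 0.11, 0.0759 and 0.109 CPM in quizartinib, where it had 4, 3 and 4 counts and its fold is uncertain. In hBMSC-CM they were LILRB3 (2.36 ± 0.55, adjusted p = 0.00405) and LST1 (−0.80 ± 0.24, adjusted p = 0.0238) of the phagocyte genes and CFD (1.05 ± 0.28, adjusted p = 0.0114), the gene of complement factor D.

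Between media the largest rise was FPR1, the receptor for bacterial formyl peptides. FPR1 was at 0.126, 0.833 and 0.271 CPM in RPMI vehicle and 22.8, 40.8 and 21.6 CPM in hBMSC-CM vehicle (6.11 ± 0.48, adjusted p = 7.74e-11). Under quizartinib it was at 0.384, 0.557 and 0.327 CPM in RPMI and 70.3, 79.1 and 61.9 CPM in hBMSC-CM (7.36 ± 0.50, adjusted p = 3.9e-13). MMP9 was at 11.1, 31.3 and 12.9 CPM in hBMSC-CM vehicle and 1.83, 6.59 and 17.2 CPM in hBMSC-CM quizartinib, and was called higher than in RPMI under vehicle (adjusted p = 0.00285) and quizartinib (adjusted p = 4.11e-05). FPR1 and MMP9 averaged under 1 CPM in RPMI and passed the filter only through hBMSC-CM, so that their tests between media are not independent of it. The largest fall was ITGAL, the α chain of LFA-1, under vehicle (−0.77 ± 0.21, adjusted p = 0.0456) and under quizartinib (−1.42 ± 0.21, adjusted p = 8.35e-06).

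The granule genes had higher TMM-scaled CPM in heavy polysomes than in input RNA. In vehicle cultures the heavy polysome library was compared with the input library of the same condition, and a positive value means a higher TMM-scaled CPM in the polysome library. In RPMI vehicle 21 of 34 genes were called, 15 higher and 6 lower, where 65.4% of all genes were called (31.5% higher, 33.9% lower). In hBMSC-CM vehicle there were 23, 15 higher and 8 lower, of 63.6% (29.6% higher, 34% lower). The fractions did not overlap for 22 and 19 of the 34 genes (70.5% and 61% of all genes). All 5 granule genes were higher in both, by 1.46 to 1.62 in RPMI and 1.21 to 1.79 in hBMSC-CM on the log2 scale. In hBMSC-CM the calls of PRTN3 and AZU1 were lost without culture 2 (adjusted p = 0.108 and 0.0602). The other genes called higher in both were S100A9, NCF1, NCF4, CYBA, ITGB2, CD33, LILRB4, CST3 and PLAUR, with TYROBP in RPMI and ITGAM in hBMSC-CM. Of these, TYROBP was lost without any of the 3 cultures (adjusted p up to 0.151) and ITGB2 without culture 1 (0.0554) in RPMI. In hBMSC-CM NCF4 was lost without culture 1 or 2 (up to 0.268) and ITGAM without culture 1 or 3 (up to 0.382). Scaling by library size alone moved the median of all genes by −0.55 and −0.52, leaving 11 members higher and 9 lower in RPMI and 10 and 9 in hBMSC-CM; granule changes were then 0.90 to 1.06 and 0.71 to 1.25, with 5 and 3 of them called. The sign of the estimate turned from positive to negative with that scaling for FCER1G, FCGR1A, ITGAM, LILRB2 and S100A8 in RPMI and for FCER1G, FCGR1A, FGR, LILRB2, LYZ and TYROBP in hBMSC-CM, none of which was called there by either.

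Over all 21 cultures, including drug conditions outside that comparison, each granule gene had a higher CPM in the heavy polysome library than in the input library of the same culture, by TMM and by library size alone. This was so for 25.4% of all genes tested by TMM and 15.3% by library size alone. On log2 of CPM plus 0.5, the ratio of MPO ran from 0.79 to 2.77 (median 1.60), that of ELANE from 0.86 to 2.27 (median 1.85) and that of PRTN3 from 0.55 to 2.38 (median 1.25). AZU1 ran from 0.42 to 2.22 and CTSG from 1.21 to 2.16. By TMM the mature genes S100A9, NCF1, CYBA, ITGAM, ITGB2, CD33, LILRB4, CST3 and PLAUR were also higher in all 21. By library size alone ITGAM was higher in 14, ITGB2 and CD33 in 17 and S100A9 in 20 of them.

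Other mature genes were lower in heavy polysomes. TLR4 was at 6.14, 5.66 and 7.34 CPM in input and 1.91, 2.08 and 2.99 CPM in polysomes of RPMI vehicle (−1.45 ± 0.25, adjusted p = 6.34e-06), and MNDA at 59.3, 67.1 and 66.3 CPM and 11.2, 16.3 and 18.5 CPM (−2.07 ± 0.30, adjusted p = 5.48e-07). In hBMSC-CM vehicle the changes were −1.98 ± 0.24 and −2.15 ± 0.30. TLR2 and TLR4 were below 0 in all 21 cultures (22.8% of all genes by TMM), and MNDA in all but 1. CYBB, FCGR2A, TLR2 and CLEC12A were called lower in both media, and LILRB1 and VCAN in hBMSC-CM. In hBMSC-CM the call of VCAN was lost without any of the 3 vehicle cultures (adjusted p up to 0.108), that of LILRB1 without culture 3 (0.177), those of CYBB (up to 0.245) and FCGR2A (up to 0.107) without culture 1 or 2, and that of CLEC12A without culture 1 or 3 (up to 0.245). In RPMI the call of CLEC12A was lost without culture 2 (0.205).

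**Figure D4:**
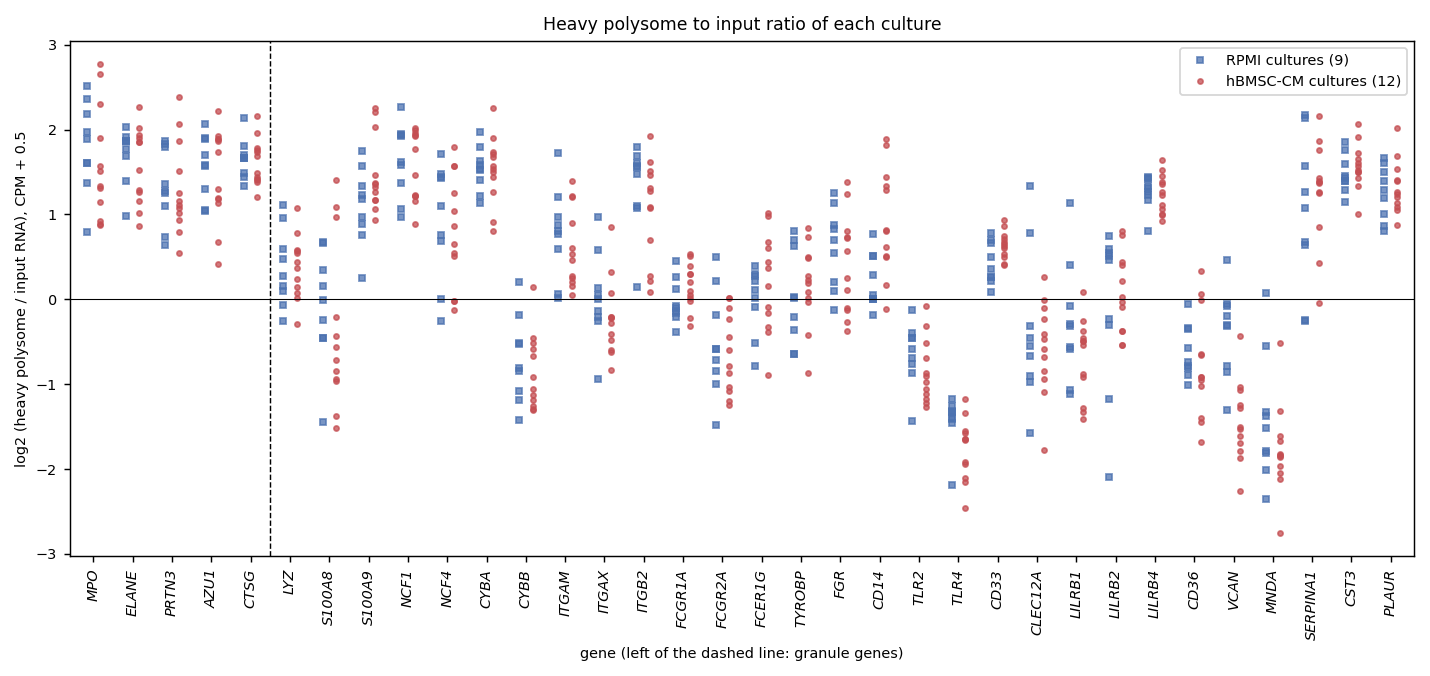
Log2 ratio of heavy polysome to input TMM-scaled CPM (y axis, 0.5 added to each) for the 34 tested genes (x axis), 1 point per culture, RPMI squares and hBMSC-CM circles. The 5 granule genes at the left are above 0 in all 21 cultures, whereas TLR2 and TLR4 are below 0 in all 21.

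The level in heavy polysomes relative to input was compared between drugs and media. Each library was scaled to itself, so a change of polysome RNA shared by all genes would not show here. The paper reports that quizartinib, alone or with everolimus, lowered the RNA yield of heavy polysomes more than that of input. The comparisons below therefore concern only the level of a gene relative to the other genes. In 5 comparisons (quizartinib in each medium, hBMSC-CM under vehicle and under quizartinib, and combo in hBMSC-CM) edgeR, DESeq2 and limma voom each called 0 of 34. Everolimus alone and combo in RPMI were not tested in this way. Of all genes edgeR called 1.55% for quizartinib in RPMI and 0% in the other 4. An unadjusted p under 0.05 was found for 4 of 34 members and 15.6% of all genes in the first. In each of the others it was found for 0 members and for 1.63% to 3.48% of all genes. In that first comparison TYROBP changed by −1.01 ± 0.45 (adjusted p = 0.262) and MNDA by 1.09 ± 0.41 (adjusted p = 0.173). With the replicate block within each fraction both were called (adjusted p = 0.00689 and 0.029), and with a term for each culture neither was (0.145 and 0.297).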

How the data were processed

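RNA of MOLM-13 cultures was sequenced from input and from heavy polysomes of a sucrose gradient after cycloheximide. Per the study's methods, the authors made poly(A) libraries, trimmed paired reads, aligned them with STAR (2.6.0a) to hg38 and deposited raw counts per gene, which are the values used here. Whether the counting used strand is not given in the sources used here. Of 58884 gene rows, those sharing a name (150 names) were summed to 57353 names. The groups came from the labels, with 3 cultures in each of 7 conditions. The labels give replicate numbers only, and the study calls the replicates biological.

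The test took the 12939 genes whose CPM averaged 1 or more across the 42 libraries, which hold 99.8% of counts. CPM were scaled by TMM. edgeR (4.0.16, R 4.3.3) quasi-likelihood tests were fitted to 14 group means over all libraries without a replicate block, and p-values were adjusted by Benjamini-Hochberg over all genes tested. Two-sided adjusted p under 0.05 was called. Changes are log2 with their standard error, which rests on the spread within groups pooled over the 14 groups. Depth was 19439370 to 37161265 counts in input and 21459383 to 38786394 in polysome libraries, with TMM factors 1.06 to 1.25 and 0.705 to 1.04. CPM rest on this depth, and 3 counts served as the floor. Same-numbered cultures deviated together from their group means (correlations 0.42 to 0.741 in input without everolimus, −0.0214 to −0.0152 with it, and 0.113 to 0.362 between the fractions of vehicle cultures). The calls gained with a replicate block are therefore named, except for everolimus alone and for heavy polysome against input RNA. Alternatives were DESeq2 (1.42.0), limma voom (3.58.1), RLE factors, library size alone, other filters, blocks, fewer groups and each culture left out. The script was tested on simulated data.

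The 40 genes and the lists were chosen with earlier results of these data known. All 40 are accounted for: values are given for the genes called in a comparison of input RNA and for all granule genes, and the list genes named are those with the largest called change in each direction. Promoters were read from RefSeq. RPMI with everolimus alone was not analysed here.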

Additional observations from a re-analysis of the deposited data

Results flagged for a closer look

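The quizartinib effect differed between RPMI and hBMSC-CM by the test of the difference itself for 2 of the 34 genes. For TLR2 the log2 change with quizartinib was −0.76 ± 0.21 in RPMI and 0.32 ± 0.20 in hBMSC-CM, a difference of 1.08 (edgeR, adjusted p = 0.0387). For PLAUR it was −1.10 ± 0.23 and 0.06 ± 0.22, a difference of 1.16 (adjusted p = 0.0434). TLR2 and PLAUR were each lower with quizartinib in 3 of 3 numbered pairs in RPMI, and each call was lost in 10 of 12 fits without 1 culture.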

How the results depend on the processing

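Of 1236 values under other settings of members called with or without a replicate block, 1090 kept their direction and their side of the threshold, 36 fell below it, 109 rose above it and 1 reversed, that of FGR, heavy polysome against input RNA, hBMSC-CM vehicle (log2 change −0.0047 with library size alone, adjusted p = 0.99, against 0.54 with TMM, which was not called). Of 672 values with 1 culture left out, 596 kept both, 72 fell below, 4 rose above and 0 reversed. The counts of members called moved by over 1.5 times as follows. Quizartinib in hBMSC-CM called 8 genes by limma voom and 8 with no filter on low counts. The difference between media called 1 gene with RLE factors, 1 with library size alone and 0 with no filter, and 0 to 1 without 1 culture. hBMSC-CM under vehicle called 4 to 6 genes without 1 culture. Combo against quizartinib in hBMSC-CM called 1 gene with no filter. With the replicate block over all libraries the counts were 9 for quizartinib in hBMSC-CM, 1 for combo in hBMSC-CM and 1 for quizartinib in RPMI in polysomes relative to input. With the replicate block within each fraction they were 19 for quizartinib in RPMI, 15 for quizartinib in hBMSC-CM, 26 for hBMSC-CM under quizartinib, 5 for combo in hBMSC-CM, 5 for everolimus (where the numbers did not pair the cultures) and 2 for quizartinib in RPMI in polysomes relative to input. The cause was not tested, and the share of all genes called with a block was not computed. The stricter filter, a mean of 10 CPM, left 8522 genes and gave no value for members below it. Summing the everolimus libraries was chosen after seeing the data. Of the genes tested, CD14, VCAN and SERPINA1 had the lowest levels in RPMI input (means 0.0663, 0.294 and 0.383 CPM), which limits their tests. The p-values of the main fit measure only the spread between the 3 cultures within a group, pooled over its 14 groups, the close everolimus cultures included.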
